A study of Setaria viridis with 9 samples.

Results

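PGR5 and PGRL1A are a pair of chloroplast proteins that work together in the thylakoid membrane, and their transcripts were followed through 9 leaf RNA libraries of Setaria viridis, a small C4 grass. The members were chosen by gene identity: PGR5 is LOC117861247 (Entrez ID.117861247, SEVIR_6G259600v2), described in the deposited table as PROTON GRADIENT REGULATION 5, and PGRL1A is LOC117840897 (Entrez ID.117840897, SEVIR_9G004600v2), described as PGR5-like protein 1A. These are 2 of the 17987 genes in the table. Polyadenylated RNA from discs of the youngest fully expanded leaves was sequenced for 3 genotype labels with 3 biological replicates each. The first label is pgr5, gene-edited plants with null alleles of PGR5. The second is ndhO, gene-edited plants with null alleles of NdhO, which encodes 1 subunit of NDH, the NADH dehydrogenase-like complex of chloroplasts. The third is wild type (WT). All 3 labels name the cultivar ME034V-1, and no other allele or agent is given. Plants of every label grew in a controlled chamber at 380 µmol m−2 s−1, 28 °C by day and 22 °C by night, and were 3 to 4 weeks old. The labels do not say where in PGR5 or NdhO the edits lie, how many edited lines were used or whether leaves were pooled.

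Cyclic electron flow returns electrons from ferredoxin, on the acceptor side of photosystem I, to the plastoquinone pool. It pumps protons into the thylakoid lumen and so drives ATP synthesis without net formation of NADPH, and it is held to matter in C4 leaves because their carbon pump costs extra ATP. A PGR5-dependent route and an NDH-dependent route are known. In Arabidopsis, PGRL1 is a thylakoid membrane protein that binds PGR5 and keeps it in the membrane, and mutants lacking PGR5 build a weaker proton gradient and are damaged by fluctuating light. The labels give a photoperiod of 16 h light and 8 h dark for growth and describe the light at sampling as constant daylight. The comparison asks how the transcripts of this pair stood when each route was edited.

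Library totals ran from 11606570 to 18837265 counts. Levels are CPM, counts scaled to a common library size, on library sizes scaled by TMM, a correction for RNA composition. Transcript lengths were not used, so levels are compared between libraries, and a ratio of 2 genes is read only for how it differs between libraries. PGR5 and NdhO transcript levels ran across the genotypes named in the labels, as described below, so pgr5, ndhO and WT here mean what a library is labelled and no more.

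PGR5 transcript was present in every library and fell into separate high and low levels that cut across the labels. Libraries labelled pgr5 1, 2 and 3 had 287, 250 and 389 CPM of PGR5. Libraries labelled ndhO 1, 2 and 3 had 38.1, 318 and 338 CPM, and those labelled WT 1, 2 and 3 had 376, 46.5 and 42.8 CPM. The lowest levels were thus in ndhO 1, WT 3 and WT 2, and none was in a library labelled pgr5. The step between the highest of these 3 libraries and the lowest of the other 6 was 5.37-fold, with 250 CPM in pgr5 2 against 46.5 CPM in WT 2. Counting error was small beside that step: the library labelled WT 3 held 523 PGR5 counts (95% Poisson interval 479 to 570) and the one labelled WT 1 held 7164 (6999 to 7332), intervals that cover counting error only. A null allele can leave its transcript in place, and the labels do not say whether these edits should lower it, so the amount of PGR5 RNA alone does not test the pgr5 label. Whether each library or column carries the genotype it is labelled with was not tested, and every mean and contrast by label below holds only as far as the labels do.

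**Figure D1:**
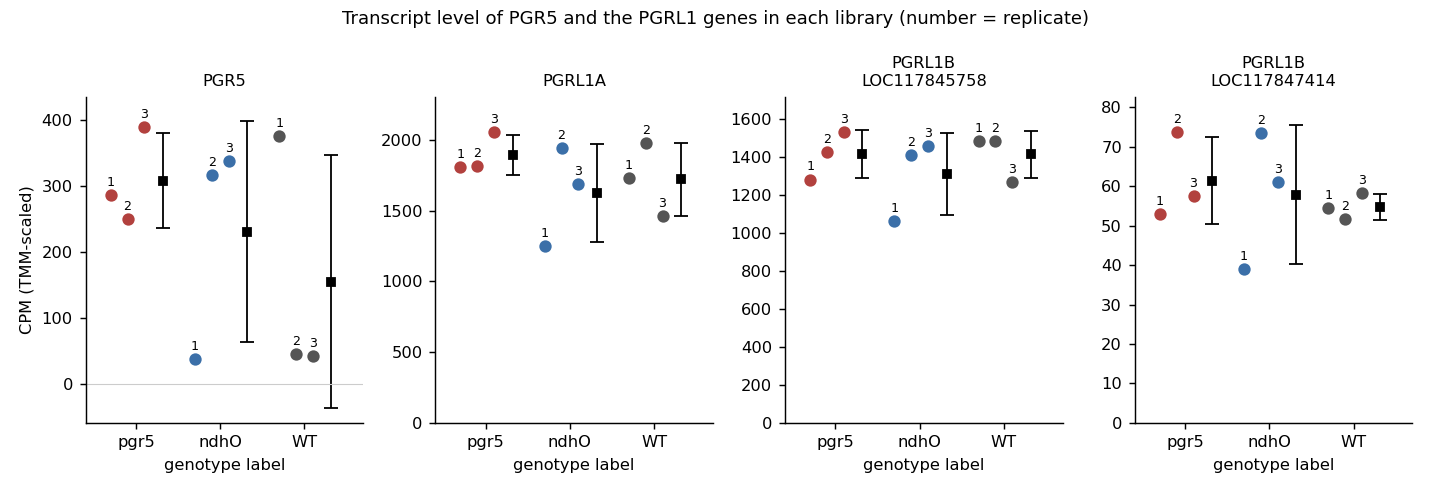
CPM of PGR5, PGRL1A and the 2 PGRL1B genes in each library, by genotype label. Numbered points are replicates, squares with bars are means with SD (n = 3), and each panel has its own scale; PGR5 has 3 libraries between 38.1 and 46.5 CPM and 6 between 250 and 389 CPM, while PGRL1A lies between 1251 and 2059 CPM.

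By label, PGR5 averaged 308 ± 72.0 CPM for pgr5, 231 ± 167 CPM for ndhO and 155 ± 191 CPM for WT (SD, n = 3 each). The libraries of every pair of labels overlapped. For pgr5 against WT the log2 fold change was 0.99 (standard error 1.00, 95% interval -1.32 to 3.30, edgeR adjusted p = 1.00). The ndhO libraries differed from the same WT libraries by 0.57 ± 0.99 on the log2 scale (standard error, edgeR adjusted p of 1.00). Between pgr5 and ndhO the log2 difference was 0.42 ± 0.99 (standard error, edgeR adjusted p of 1.00). For pgr5 against WT the interval runs from 0.401-fold to 9.83-fold, and neighbours in the order pgr5, ndhO, WT were not told apart.

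Single libraries set the size of these differences. Without the library labelled WT 1, the only WT library high in PGR5, PGR5 differed by 2.79 on the log2 scale for pgr5 against WT (unadjusted p = 0.0120, adjusted 0.999 in edgeR), and without WT 2 or WT 3 it was 0.57 or 0.54. For ndhO against WT it was 2.37 without WT 1, 0.16 without WT 2, 0.13 without WT 3, 1.08 without ndhO 1, and 0.29 and 0.21 without ndhO 2 and ndhO 3. The pgr5 against ndhO difference was -0.09 without ndhO 1, 0.71 and 0.78 without ndhO 2 and ndhO 3, and 0.22 without pgr5 3. Neither member passed edgeR's test in any of the 3 contrasts, where the share of all 17970 tested genes called was 0% (0 genes in each, with 371, 493 and 480 at an unadjusted p under 0.05 for pgr5 against WT, ndhO against WT and pgr5 against ndhO). DESeq2 called 6, 16 and 12 genes in those contrasts and limma-voom called 0. The limma-voom estimate for PGR5 was larger, 1.74 for pgr5 against WT (unadjusted p = 0.0934, adjusted 1.00) and 0.92 for pgr5 against ndhO on the log2 scale. DESeq2 gave no adjusted p for PGR5.

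**Figure D2:**
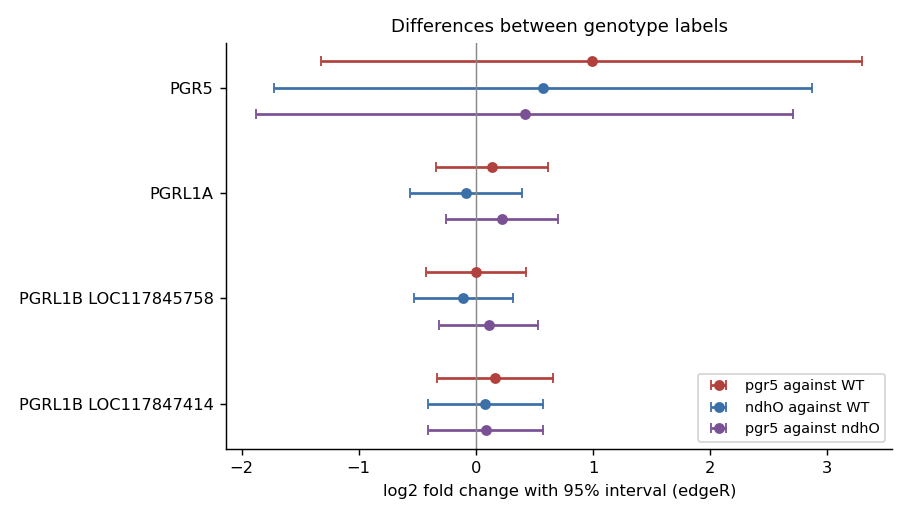
Log2 fold changes between genotype labels with 95% intervals from edgeR (n = 3 libraries per label) for PGR5, PGRL1A and the 2 PGRL1B genes. All 12 intervals include 0, and those of PGR5 are the widest, reaching from -1.32 to 3.30 for pgr5 against WT.

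The spread of PGR5 was wide among the libraries labelled ndhO, with an 8.85-fold range, and among those labelled WT, with an 8.79-fold range, while those labelled pgr5 spanned 1.56-fold. Over all labels its biological coefficient of variation, the replicate scatter beyond counting error, was 0.788, where the fitted trend for genes of that abundance was 0.236. The highest and the lowest of the 9 libraries differed 10.2-fold. Among 9557 genes with a mean of at least 10 CPM the median of this range was 1.70-fold, and 130 genes (1.36%) had a wider range than PGR5. PGRL1A had a coefficient of variation of 0.206 against a trend of 0.258 and a range of 1.65-fold, and 55.3% of these genes had a wider one.

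**Figure D3:**
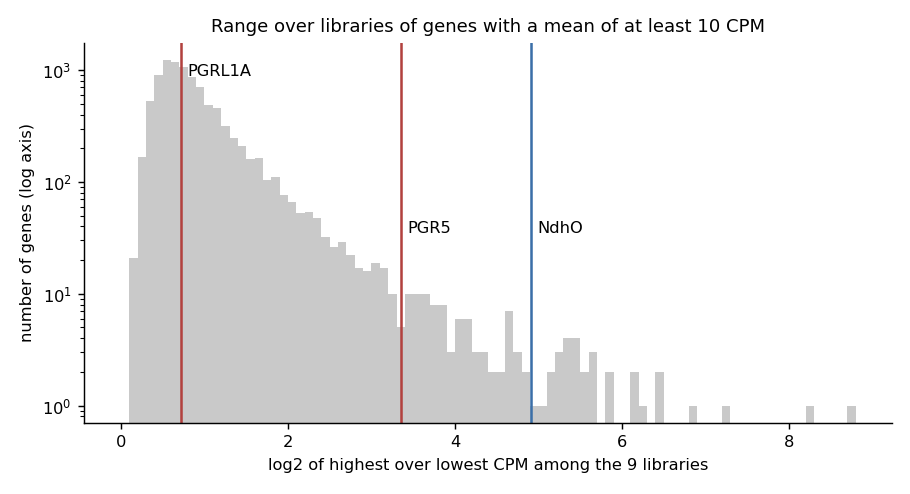
Histogram of genes with a mean of at least 10 CPM by the log2 of their highest over their lowest CPM among the 9 libraries, with lines at PGRL1A, PGR5 and NdhO; the vertical axis is logarithmic and 14 genes at 0 in a library are left out. PGRL1A (1.65-fold) stands in the bulk of genes, and PGR5 (10.2-fold) and NdhO (30.1-fold) in the tail.

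NdhO (LOC117858157), the other edited gene, also had 3 low libraries, and they were different ones. In the libraries low in NdhO, namely pgr5 2, pgr5 3 and WT 1 (20.5, 48.4 and 44.3 CPM of NdhO), PGR5 stood at 250, 389 and 376 CPM. In those low in PGR5, namely ndhO 1, WT 2 and WT 3, NdhO stood at 245, 617 and 230.0 CPM. No library was low in both, and pgr5 1, ndhO 2 and ndhO 3 were high in both. Each of the 3 libraries labelled WT was thus low in the transcript of 1 of the edited genes.

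**Figure D4:**
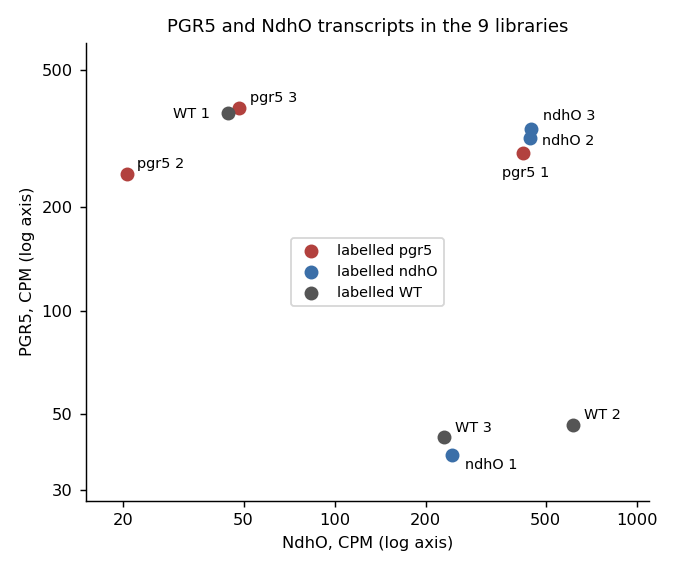
PGR5 against NdhO in CPM for the 9 libraries, both axes logarithmic, coloured by genotype label. Low PGR5 (38.1 to 46.5 CPM) occurs in ndhO 1, WT 2 and WT 3, low NdhO (20.5 to 48.4 CPM) in pgr5 2, pgr5 3 and WT 1, and each label is split between sets.

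PGRL1A, the membrane partner of PGR5, varied over a far narrower range, 1.65-fold over the 9 libraries where PGR5 spanned 10.2-fold. Its level was 1806, 1814 and 2059 CPM in pgr5 1, 2 and 3, against 1251, 1939 and 1688 CPM in ndhO 1, 2 and 3 and 1732, 1976 and 1459 CPM in WT 1, 2 and 3. The lowest values were in ndhO 1 and WT 3, which were also low in PGR5, while WT 2, where PGR5 stood at 46.5 CPM, had the second-highest PGRL1A level. Its means were 1893 ± 144 CPM for pgr5, 1626 ± 348 CPM for ndhO and 1722 ± 259 CPM for WT (SD, n = 3 each).

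Between pgr5 and WT, PGRL1A differed by 0.14 on the log2 scale (standard error 0.22, edgeR adjusted p = 1.00). Its 95% interval ran from -0.34 to 0.61, which is 0.789-fold to 1.53-fold. The ndhO libraries stood at -0.08 ± 0.22 against WT and the pgr5 libraries at 0.22 ± 0.22 against ndhO on the log2 scale (standard errors, edgeR adjusted p of 1.00 in each). The libraries overlapped in all 3 contrasts. Non-overlapping libraries were seen in 6.32% of all tested genes for pgr5 against WT, 8.63% for ndhO against WT and 8.25% for pgr5 against ndhO. Leaving out WT 3 gave 0.03 for pgr5 against WT, WT 2 gave 0.25 and pgr5 3 gave 0.07. Without WT 2 or ndhO 1 the ndhO against WT value turned to 0.04 or 0.07, and without ndhO 2 or WT 3 it was -0.22 or -0.19.

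Photosystem I genes and genes of the bundle sheath, the inner ring of green cells in a C4 leaf, were also at their lowest in the libraries that were lowest in PGRL1A. The 9 genes described as photosystem I subunits summed to 20477 CPM in ndhO 1 and 20096 CPM in WT 3, and to between 24344 and 36072 CPM in the other 7 libraries. The 14 bundle sheath markers summed to 15810 CPM in ndhO 1 and 16130 CPM in WT 3, and to between 21145 and 26851 CPM elsewhere. Chloroplast ATP synthase genes were lowest in the same libraries, at 2828 CPM in ndhO 1 and 3003 CPM in WT 3. Other lists followed in part or not at all. Cytochrome b6f and plastocyanin genes summed to 4141 CPM in ndhO 1 and 4145 CPM in WT 3, but were lowest in pgr5 2, at 4109 CPM. NDH genes were lowest in WT 3, at 3836 CPM, followed by pgr5 2 at 4187 CPM and ndhO 1 at 4559 CPM. Mesophyll markers summed to 68210 CPM in ndhO 1 and 85573 CPM in WT 3, and were lowest in pgr5 2, at 65168 CPM. Ferredoxin and ferredoxin-NADP reductase genes, listed together, summed to 7657 CPM in WT 3 and were also lowest in pgr5 2, at 5820 CPM. The reductase gene LOC117859992 alone averaged 4588 CPM in WT libraries, so this sum does not describe ferredoxin genes by themselves. WT 2, the other library low in PGR5, had the highest photosystem I sum, 36072 CPM. The part of these genes and markers in the PGR5 and PGRL1A values was not tested. In bulk leaf RNA, fewer cells of a type and less RNA per cell cannot be told apart.

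The table holds 2 more genes of the PGRL1 family, both described as PGR5-like protein 1B. In Arabidopsis, PGRL1A and PGRL1B are close copies with overlapping function. The counting may have divided reads that match more than 1 copy, so the levels of single PGRL1 genes are uncertain to that extent. The first, LOC117845758, stood at 1283, 1430 and 1535 CPM in pgr5 1, 2 and 3, at 1065, 1412 and 1459 CPM in ndhO 1, 2 and 3, and at 1487, 1486 and 1272 CPM in WT 1, 2 and 3. Its lowest libraries were ndhO 1 and WT 3, as for PGRL1A, and its 1.44-fold range was narrower than that of 79.6% of genes. The pgr5 against WT difference was 0.00 on the log2 scale with a 95% interval from -0.42 to 0.42, and its sign turned with the size factors of DESeq2 (-0.0044). For ndhO against WT it was -0.11 ± 0.19 (standard error, edgeR adjusted p of 1.00).

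The second PGRL1B gene, LOC117847414, stood at 52.9, 73.9 and 57.5 CPM in pgr5 1, 2 and 3, at 39.0, 73.6 and 61.1 CPM in ndhO 1, 2 and 3, and at 54.5, 51.7 and 58.3 CPM in WT 1, 2 and 3. The library labelled ndhO 1 was the lowest for this gene too, so it held the lowest level of all 4 genes of the PGR5 and PGRL1 group. On the log2 scale it differed by 0.16 ± 0.22 for pgr5 against WT and by 0.08 ± 0.22 for ndhO against WT (standard errors, edgeR adjusted p of 1.00 in each). No PGRL1 gene had non-overlapping libraries in any contrast.

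A ratio of counts within a library does not depend on how libraries are scaled. PGRL1A counts were 6.30, 7.26 and 5.30 times PGR5 counts in pgr5 1, 2 and 3, against 32.8, 6.11 and 5.00 times in ndhO 1, 2 and 3 and 4.61, 42.5 and 34.1 times in WT 1, 2 and 3. The ratio was high in the 3 libraries low in PGR5 and between 4.61 and 7.26 in the other 6. PGR5 counts are its divisor and PGRL1A varied little, so this split follows from the PGR5 counts and is no separate observation. For pgr5 against WT the mean log2 ratio differed by -1.59 (two-sided exact permutation test, p = 0.400, n = 3 each), in a design whose smallest p is 0.1. The ratio of the PGRL1B gene LOC117845758 to PGRL1A moved far less and lay between 0.710 in pgr5 1 and 0.872 in WT 3.

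The 3 PGRL1 genes were set against each other over the 9 libraries, on log2 CPM. PGRL1A and LOC117845758 correlated with Pearson's r = 0.87 (exact permutation p = 0.00705, adjusted over 3 relations 0.0211) and Spearman's rho = 0.67 (exact permutation p = 0.0589, adjusted 0.177). Without ndhO 1 and WT 3, the libraries farthest from the median of PGRL1A, r was 0.30, so the relation rests on those libraries. PGRL1A and LOC117847414 gave r = 0.59 (exact permutation p = 0.0999, adjusted 0.0999) and rho = 0.18 (exact permutation p = 0.644, adjusted 0.776), with r = -0.02 without the same libraries. The 2 PGRL1B genes gave r = 0.62 (exact permutation p = 0.0832, adjusted 0.0999) and rho = 0.12 (exact permutation p = 0.776, adjusted 0.776), with r = -0.02 without ndhO 1 and WT 3. PGR5 levels form separate clusters of 3 and 6 libraries, so no correlation of PGR5 with PGRL1A was tested.

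Genes with the most similar profile were ranked by Pearson's r of log2 CPM with each member over the 9 libraries, among 9556 other genes with a mean of at least 10 CPM. These r values are descriptions, and all genes share the libraries and their depth. Nearest to PGR5 were a DNA-binding protein MNB1B-like gene (LOC117865750, r = 0.96), LOC117851001 (r = 0.95), a REF/SRPP-like gene (LOC117850567, r = 0.94), LOC117839591 (r = 0.94) and LOC117847910, which encodes a vacuolar proton pump driven by pyrophosphate (r = 0.92). MNB1B, an HMG-box chromatin protein of maize, names the first of them. Its level was 94.1, 99.1 and 113 CPM in pgr5 1, 2 and 3, 54.5, 91.3 and 89.0 CPM in ndhO 1, 2 and 3, and 87.0, 53.0 and 47.9 CPM in WT 1, 2 and 3. All 5 genes had their lowest levels in ndhO 1, WT 2 and WT 3, as the measure of likeness favours, over ranges from 1.26-fold to 2.93-fold, where PGR5 spanned 10.2-fold. PGRL1A stood at place 650 in this order.

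Nearest to PGRL1A were an acyclic sesquiterpene synthase-like gene (LOC117862601, r = 0.95), a CD2 antigen cytoplasmic tail-binding protein 2 homologue (LOC117859554, r = 0.95), LOC117856886 (r = 0.95), a CURVATURE THYLAKOID 1D gene (LOC117838976, r = 0.94) and a very-long-chain enoyl-CoA reductase-like gene (LOC117842955, r = 0.94). Proteins of the CURVATURE THYLAKOID 1 family bend the thylakoid membrane at the margins of the grana. This gene stood at 233, 204 and 299 CPM in pgr5 1, 2 and 3, at 120, 264 and 233 CPM in ndhO 1, 2 and 3, and at 225, 230 and 171 CPM in WT 1, 2 and 3. Each of the 5 had its lowest level in ndhO 1 and its next in WT 3, as the measure of likeness favours. With Spearman's rho as the measure, 0 of these 5 and 0 of the 5 named for PGR5 were again among the top 5.

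In the RefSeq annotation of Setaria_viridis_v4.0, used here for the order of genes alone, the nearest tested neighbours of PGR5 are a SUVR4-like histone methyltransferase gene (LOC117861243) and a gene for the peroxisomal membrane protein PMP22 (LOC117861245). The SUVR4-like gene ranged from 13.4 to 18.7 CPM over the 9 libraries, 1.39-fold. Like PGR5 it was lowest in ndhO 1 (13.4 CPM), and WT 3 (14.1 CPM) and WT 2 (14.7 CPM) were also among its 4 lowest, with pgr5 3 (13.8 CPM) between them and ndhO 1. It stood at place 451 in the order of likeness to PGR5 (r = 0.65). PMP22 ranged from 6.42 to 11.5 CPM and was highest in ndhO 1, where PGR5 was lowest. The annotation also has a gene, LOC117861242, overlapping PGR5 that was not analysed here, so reads could be shared between them. Beside PGRL1A lie a carbohydrate esterase gene (LOC117840898, 0.907 to 1.84 CPM) and the gene of the chloroplast ribosome-binding factor PSRP1 (LOC117838225). PSRP1 stood at 377 ± 125 CPM in pgr5, 513 ± 89.9 CPM in ndhO and 482 ± 164 CPM in WT libraries (SD, n = 3 each), with its lowest level in pgr5 3, where PGRL1A was highest.

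The rest of the electron transport route was described with 7 further lists drawn from the deposited descriptions. No gene in any of them passed edgeR's test in either direction in any contrast, as was so for all genes. For pgr5 against WT the median log2 fold change over all 17970 genes was 0.00. The medians were -0.13 for 9 photosystem I genes, -0.02 for 20 NDH genes and -0.08 for 11 genes of the ferredoxin list. They were -0.02 for 2 genes of the cytochrome b6f complex and plastocyanin and 0.06 for 4 chloroplast ATP synthase genes. The 8 regulators of the proton gradient and of state transitions had a median of 0.07 and the 6 thioredoxin m and NTRC genes one of 0.01. For ndhO against WT, which shares the WT libraries, the medians were -0.13 for photosystem I, -0.03 for NDH, 0.12 for ferredoxin, 0.02 for cytochrome b6f and plastocyanin, -0.01 for ATP synthase, 0.08 for the regulators and -0.15 for thioredoxin genes, with -0.0038 over all genes. The ferredoxin list includes ferredoxin-NADP reductases. It also includes ferredoxin-dependent nitrite reductase and glutamate synthase, which use electrons and do not carry them. The regulator list includes a protein phosphatase 2C gene matched by its number.

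Named by rule from these lists, the partners on either side of cyclic flow did not pass edgeR's test, with an adjusted p of 1.00 for each gene named here. Subunit XI of photosystem I (LOC117848636) stood at 4312 ± 346 CPM in pgr5 and 4809 ± 960 CPM in WT libraries. The leaf ferredoxin-NADP reductase LOC117859992, which passes electrons from ferredoxin to NADP+, stood at 4333 ± 502 against 4588 ± 817 CPM in WT. Its root isozyme LOC117837416 had the lowest p of the ferredoxin list, at 23.9 ± 8.34 CPM in pgr5 and 33.4 ± 7.08 CPM in WT libraries (SD, n = 3 each), a log2 fold change of -0.48 ± 0.26 (standard error, edgeR adjusted p of 1.00).

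Plastocyanin (LOC117853145), the soluble carrier that feeds photosystem I, stood at 3069 ± 1287 CPM in pgr5 and 3210 ± 1017 CPM in WT libraries (SD, n = 3 each). The gamma subunit of the ATP synthase (LOC117843319) stood at 1552 ± 219 against 1454 ± 253 CPM in WT, and subunit b' (LOC117835409) at 1393 ± 161 against 1491 ± 247 CPM. Among the regulators, violaxanthin de-epoxidase (LOC117863445), which lumen acidification activates for heat dissipation, stood at 74.6 ± 12.5 against 64.2 ± 3.92 CPM in WT. Zeaxanthin epoxidase (LOC117863401), which runs the reverse reaction, stood at 1530 ± 117 against 1505 ± 260 CPM in WT.

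Among thioredoxins of the m type, which in Arabidopsis regulate PGRL1-dependent cyclic flow, LOC117864027 stood at 1178 ± 23.8 CPM in pgr5 and 1266 ± 91.8 CPM in WT libraries (SD, n = 3 each). Another, LOC117854037, had the lowest p of its list, at 10.01 ± 2.00 against 12.5 ± 1.15 CPM in WT (edgeR adjusted p of 1.00). Subunit O of photosystem I (LOC117863254) stood at 3506 ± 413 against 4069 ± 1517 CPM in WT. PnsB5 (LOC117856781), a subunit of NDH subcomplex B, had 796 ± 128 CPM in pgr5 and 771 ± 255 CPM in WT libraries.

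Markers of the labelled tissue were present throughout. The 11 mesophyll markers summed to 65168 to 86517 CPM in pgr5, 68210 to 95991 CPM in ndhO and 71493 to 85573 CPM in WT libraries, and the 14 bundle sheath markers to 22315 to 26851, 15810 to 21550 and 16130 to 26797 CPM in the same order of labels. No marker of either list was at 0 in any library. Of other cell types, 28 epidermis and cuticle genes summed to 2013 to 3599 CPM in pgr5, 3031 to 4303 CPM in ndhO and 2489 to 3681 CPM in WT libraries. The 8 markers of lignifying vascular tissue summed to 43.4 to 156 CPM in pgr5, 64.4 to 91.9 CPM in ndhO and 73.4 to 134 CPM in WT libraries, and the 28 markers of dividing cells to 978 to 1023, 938 to 952 and 942 to 995 CPM in that order. In these last 3 lists 5, 3 and 2 genes were at 0 in at least 1 library.

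The authors' deposited table also lists corrected log2 CPM, made by a correction that the table does not describe. Against log2 CPM computed from the counts, the corrected PGR5 values were lower by 0.81 in pgr5 1, 2 and 3 and ndhO 3, and higher by the same amount in ndhO 1, ndhO 2 and the 3 WT libraries. In the corrected values PGR5 stood at 7.35, 7.16 and 7.79 in pgr5 1, 2 and 3, at 6.06, 9.12 and 7.59 in ndhO 1, 2 and 3, and at 9.36, 6.35 and 6.23 in WT 1, 2 and 3. The low libraries were the same in both versions, and the pgr5 libraries and ndhO 3 now lay between the low and the high ones. The shift for PGRL1A was 0.06, with the same libraries on each side, and it was 0.13 and 0.09 for the PGRL1B genes LOC117845758 and LOC117847414.

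In the authors' deposited table PGR5 had a log2 fold change of 0.12 for pgr5 against WT (the authors' adjusted p = 0.958) and of 0.27 for ndhO against WT (the authors' adjusted p = 0.960). For PGRL1A the authors' deposited table gives 0.03 (adjusted p = 0.952) and -0.14 (adjusted p = 0.892) for the same comparisons. For LOC117845758 the authors' deposited table gives -0.25 (adjusted p = 0.414) for pgr5 against WT. None of the 4 genes was thus called in the authors' deposited table, where 2.51% of all genes were called for pgr5 against WT and 0% for ndhO against WT.

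**Figure D5:**
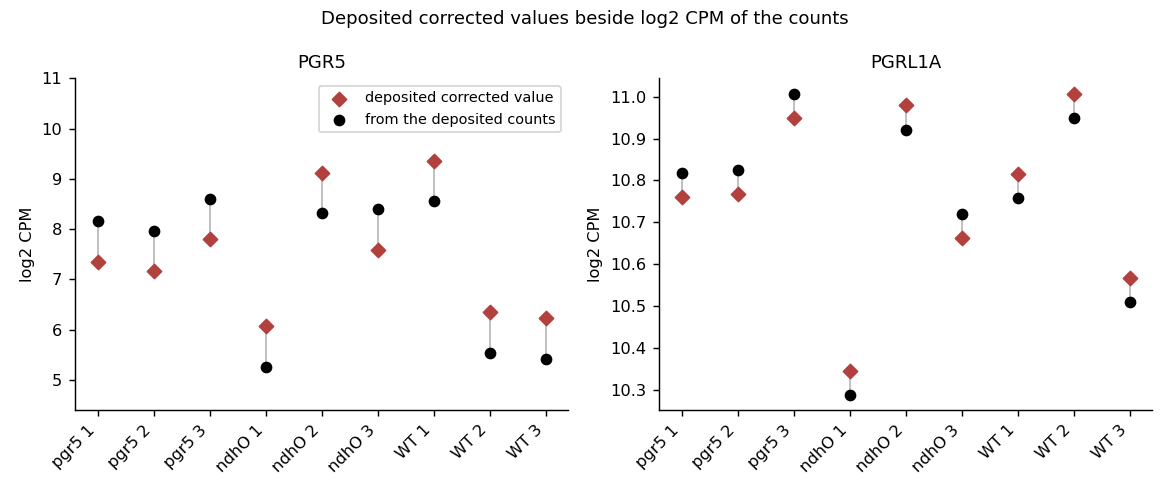
Deposited corrected log2 CPM (diamonds) beside log2 CPM computed from the deposited counts (circles) for PGR5 and PGRL1A in the 9 libraries, each panel with its own scale that does not start at 0. The values of the 3 pgr5 libraries and ndhO 3 are shifted down and the other 5 up, by 0.81 for PGR5 and 0.06 for PGRL1A.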

How the data were processed

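Gene counts for 9 leaf libraries were taken as the authors deposited them, in 1 table of whole-number counts per gene. Software listed by the submitters' processing notes is limma 3.62.2, edgeR 4.4.1, StringTie 2.2.3, FastQC 0.11.9 and Trim Galore 0.6.7, with no roles. Aligner, genome build and strand setting are not stated. The deposited table also gives the authors' corrected log2 CPM, log2 fold changes, p-values and adjusted p-values. The moderated statistics, a score per gene, that the authors deposited were not used. Count columns were matched to libraries by genotype and last number; the ndhO and pgr5 columns carry a further number whose meaning is not stated.

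Counts were tested with edgeR 4.0.16 in R 4.3.3 (quasi-likelihood, robust, TMM factors 0.943 to 1.05, filterByExpr), with the genotype label as the only term over all 9 libraries and Benjamini-Hochberg adjustment over 17970 genes, called at an adjusted p under 0.05. Pearson likeness used log2 CPM with a prior count of 2. Corrected values were set against log2 CPM with 0.5 added to each count. The edgeR test was run on simulated counts with scatter at the fitted trend and fold changes placed in all pgr5 libraries. PGR5 scattered far above that trend and across labels, so the simulation does not speak to PGR5. Alternatives were other scalings and filters, DESeq2 1.42.0, limma-voom (limma 3.58.1), the compared labels alone, leaving out each library and a replicate block. Besides the members, the text names the other PGRL1 genes, NdhO, the adjacent genes, the 5 genes most like each member, and in each of 8 pathway lists the gene of lowest p and the most abundant one. The members and lists were chosen with earlier results of these data known. Of the 17987 IDs, 17558 matched RefSeq. Replicates are labelled biological, but the labels do not say how they were separated, so p-values measure the spread between these libraries.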

Additional observations from a re-analysis of the deposited data

How the results depend on the processing

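PGR5 and PGRL1A passed the threshold under none of the alternatives run, and DESeq2 gave no adjusted p for PGR5. Without each library in turn the log2 difference of PGR5 lay between 0.54 and 2.79 for pgr5 against WT, between 0.13 and 2.37 for ndhO against WT and between -0.0869 (without ndhO 1) and 0.782 for pgr5 against ndhO. With limma-voom it was 1.74, 0.82 and 0.92 in those contrasts. That of PGRL1A lay between 0.03 and 0.25, between -0.2246 and 0.0744, and between 0.06 and 0.36 in the same contrasts, and with library totals alone it was -0.134 for ndhO against WT. For the PGRL1B gene LOC117845758 the ranges were -0.0701 to 0.0654, -0.1822 to 0.0207 and -0.0196 to 0.1846, and for LOC117847414 they were 0.01 to 0.26, -0.13 to 0.30 and -0.13 to 0.29. The sign of LOC117845758 for pgr5 against WT turned with DESeq2 size factors (-0.0044), in DESeq2 (-0.0044) and with the replicate block (-0.0067). DESeq2 called 6 genes for pgr5 against WT, 16 for ndhO against WT and 12 for pgr5 against ndhO, where edgeR called 0; the cause was not tested. The log2 ratio of PGRL1A to PGR5 for pgr5 against WT lay between -2.61 and -1.01 without each library. Ranking likeness by Spearman's rho kept 0 of the 5 genes named for PGR5 and 0 of the 5 for PGRL1A.

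Same-numbered libraries of different labels had deviations from their label means that correlated between -0.458 and 0.065. Of the 9 libraries, 0 correlated best with their own number, and the numbers were not taken to pair the libraries. These deviations rest on the labels, so the check cannot exclude a pairing. With the replicate block the log2 difference of PGR5 was 1.27, 1.01 and 0.26 and that of PGRL1A 0.14, -0.10 and 0.24 for pgr5 against WT, ndhO against WT and pgr5 against ndhO, with 0 genes called in each. The log2 ratio of PGRL1A to PGR5 for pgr5 against WT was -1.59 with the block. Pairing equal numbers of libraries cannot change a difference of means, so this value is no separate check. With 3 libraries per label, the spread of PGR5 between libraries of the same label was wide beside counting error for ndhO and WT. The source of that spread was not tested.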
